A study of Mus musculus with 7 samples.

Results

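The 35 genes described here encode the soluble hydrolases of the lysosome and the proteins of its membrane. With earlier results of these data known, they were chosen by name from a list among the 20859 genes counted in mouse cortex and hippocampus. They comprise 5 hydrolases of glycoproteins and glycogen, 9 genes of sphingolipid degradation, 6 of glycosaminoglycan degradation, 3 of sterol and lipid export, 4 of protein degradation and granulin, and 8 membrane proteins. The study compared FAD mice, a mouse model of Alzheimer's disease, with wild-type mice to ask what targeting CD38, a surface enzyme that consumes NAD, changed in the brain. The group FAD CD38 had the FAD genotype and the treatment that the labels call CD38 (7 mice). The group FAD IgG had the same genotype and was given IgG (7 mice), and the group WT had the wild-type genotype and was given PBS (9 mice, 8 of them with hippocampus). The sources used here do not give the transgenes behind the name FAD, the age of the mice or the antibody. Genotype and injection differ together between both FAD groups and WT, so their parts cannot be told apart. Each deposited sample was a library pool of several mice of different groups, and a mouse counts as the replicate.

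Lysosomal hydrolases are made in the endoplasmic reticulum, tagged with mannose-6-phosphate, sorted to the lysosome and activated at its acid pH, where they take apart glycolipids, glycosaminoglycans, proteins and stored lipids. Loss of many of them causes a storage disease in people that injures neurons, while microglia, the phagocytes of the brain, are rich in lysosomes. Many lysosomal genes carry an E-box of the CLEAR type in their promoters, the element bound by TFEB and its relatives.

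The counts were made by mcSCRB-seq, applied here to tissue samples. It reads the 3' end of each transcript, so a count does not grow with transcript length. Levels of single genes are compared only within a gene. The 47 wells came from 24 mice in 7 pools and held 1270918 to 5101368 counts each. The labels of 1 mouse disagreed on its treatment, CD38 or IgG, and its 2 wells entered no comparison. Ribosomal RNA genes took 3.56 to 17.2% of counts in FAD CD38, 3.87 to 15.3% in FAD IgG and 3.18 to 23.7% in WT hippocampus, and 3.53 to 9.37%, 2.91 to 13.4% and 3.93 to 8.12% in cortex. Of the 35 genes, 23 had their lowest FAD CD38, 15 their lowest FAD IgG and 26 their lowest WT hippocampal value in the well of highest ribosomal RNA share of that group. How many of all genes did so was not counted. Fits without the wells above 12% are given where they change a call of the 35 genes. Levels are in CPM, the counts of a gene scaled to the same total in each well. Cd38 itself had medians of 7.28 CPM in FAD CD38, 7.33 CPM in FAD IgG and 7.58 CPM in WT hippocampus, and of 3.75, 3.93 and 1.91 CPM in cortex. Among region markers, 7 of 7 hippocampal genes were higher and 7 of 8 cortical genes lower in WT hippocampus than in WT cortex. Striatal markers were also present in the cortex samples, with summed levels of 174 to 472 CPM in FAD CD38, 192 to 606 in FAD IgG and 356 to 751 in WT.

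In FAD IgG mice 14 of the 35 genes were higher than in WT mice in at least 1 region, and none was lower. A gene counts as higher or lower at a Benjamini-Hochberg adjusted p under 0.05 over all genes in edgeR's quasi-likelihood test, and DESeq2 and limma-voom also called none lower. In hippocampus 13 of 33 tested genes rose (39.4%, against 4.48% of all 12728 genes tested), and 0.416% of all genes fell. In cortex 11 of 34 tested genes rose (32.4%, against 3.34% of all 12968 genes), and 0.532% of all genes fell. At an unadjusted p under 0.05 there were 16 in either region, all of them higher, against 14.5% of all genes in hippocampus and 15.1% in cortex, in either direction. The genes that rose in both regions numbered 10: Man2b1, Hexa, Gusb, Naglu, Lipa, Npc2, Lgmn, Grn, Lamp2 and Cd63. They are 76.9% of the hippocampal calls and 90.9% of the cortical calls. Tpp1 passed in cortex alone, and Gm2a, Galc and Scarb2 in hippocampus alone. The median log2 fold change over the tested genes was 0.38 in hippocampus and 0.26 in cortex, against 0.00 and 0.01 over all genes. In bulk tissue, more cells of a type and more RNA per cell cannot be told apart. Sgsh did not pass the filter on low counts in either region and Manba did not in hippocampus, so neither count covers all 35 genes.

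**Figure D1:**
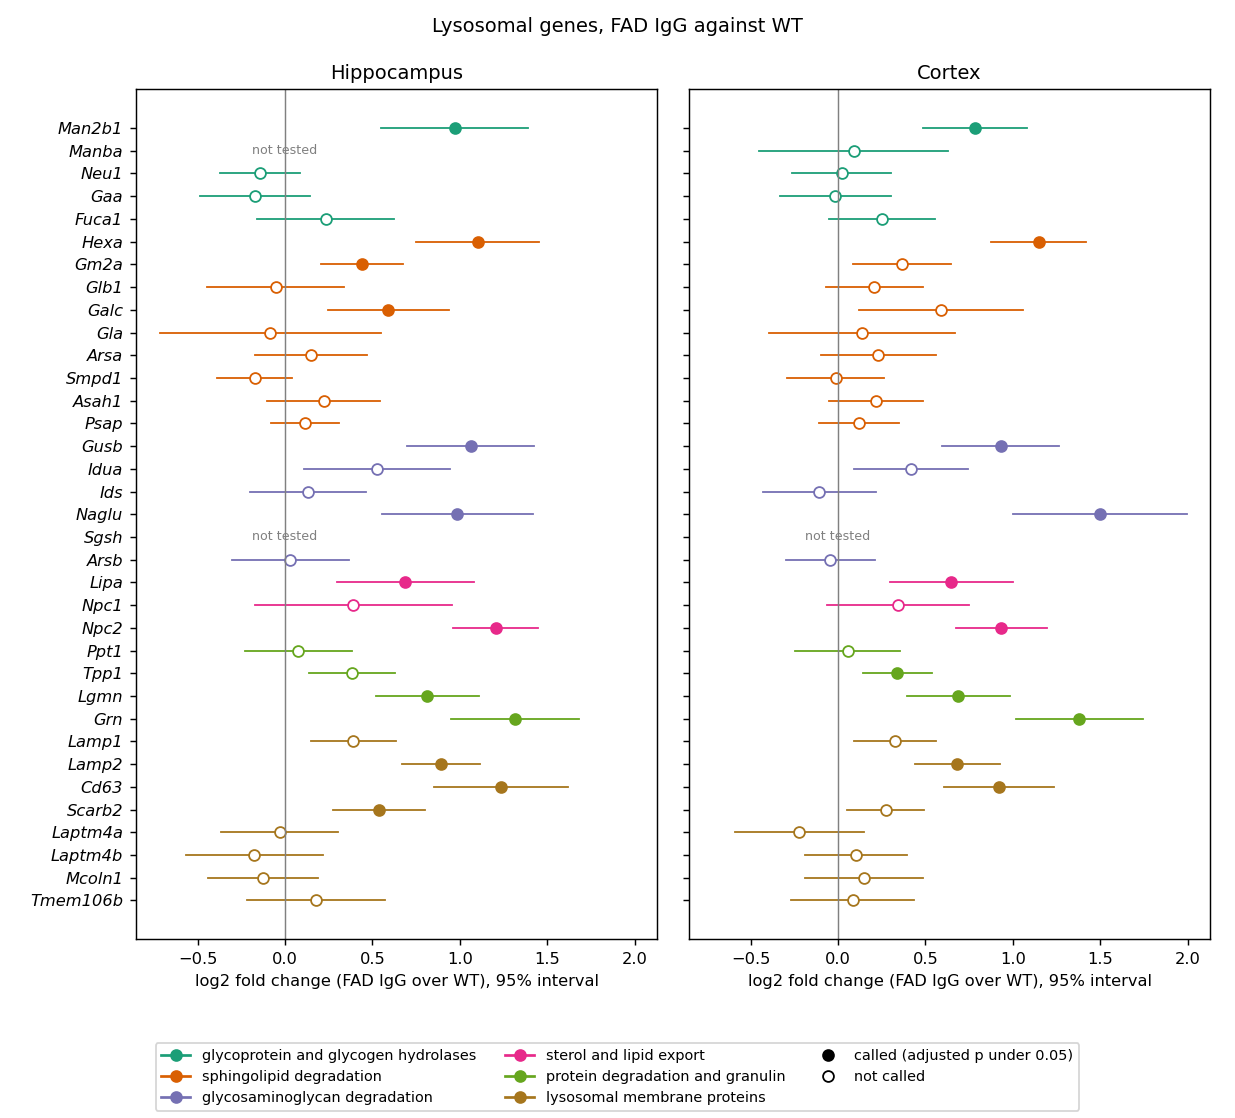
Log2 fold change of each lysosomal gene in FAD IgG over WT mice with its 95% interval, hippocampus left and cortex right, coloured by role. Filled points passed an adjusted p of 0.05. They number 13 in hippocampus and 11 in cortex, and all lie to the right of 0.

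Summed over the 35 genes, hippocampus held 2151.28, 3171.82 and 3430.5 CPM (lowest, median and highest mouse) in FAD CD38, 2681.28, 3295.48 and 3573.54 CPM in FAD IgG and 1583.63, 2375.63 and 2648.18 CPM in WT. In cortex these sums were 2410.5, 2931.96 and 3463.02 CPM in FAD CD38, 2540.68, 3161.03 and 3486.15 CPM in FAD IgG and 1833.12, 2355.48 and 2536.56 CPM in WT. Every FAD IgG mouse thus lay above every WT mouse in both regions, by narrow gaps (2681.28 against 2648.18 CPM in hippocampus, 2540.68 against 2536.56 CPM in cortex). FAD CD38 overlapped WT in both regions. In hippocampus it did so only through the mouse with 17.2% ribosomal RNA, the next FAD CD38 mouse lying at 2771.68 CPM. Genes of many counts, such as Cd63, weigh most in these sums. The lowest hippocampal sums of FAD CD38, FAD IgG and WT belonged to the wells with 17.2%, 15.3% and 23.7% ribosomal RNA, and the lowest cortical sum of FAD IgG to a well with 13.2%.

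Microglial markers moved with these genes. Their summed level over 15 markers was 1620 to 3290 CPM in FAD CD38, 2450 to 3250 CPM in FAD IgG and 422 to 752 CPM in WT hippocampus, and 1790 to 3220, 2010 to 3180 and 607 to 811 CPM in cortex. In FAD IgG 14 of 15 were called higher than WT in hippocampus and 13 of 15 in cortex, and none was at 0 in any group. Of 12 astrocyte markers 6 rose in hippocampus and 2 in cortex, with sums of 3870 to 5010 CPM in FAD CD38, 3850 to 5280 CPM in FAD IgG and 3200 to 4490 CPM in WT hippocampus, and 3600 to 5630, 3810 to 5980 and 3020 to 4800 CPM in cortex. Of 11 neuronal markers 0 rose in either region, and of 10 oligodendrocyte markers 1 did in each. Of the tested endothelial markers (6 in hippocampus, 7 in cortex) 0 were called in edgeR between FAD IgG and WT. Choroid plexus markers varied among mice, up to 15600 CPM in FAD CD38, 8830 CPM in FAD IgG and 283 CPM in WT hippocampus, with no call. Of 7 hippocampal markers 2 were lower in FAD IgG than in WT hippocampus. The part of any of these cells in the lysosomal result was not tested.

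Among the hydrolases of glycoproteins and glycogen, 1 gene moved. Man2b1, lysosomal alpha-mannosidase, cuts mannose from glycoproteins. In hippocampus it was counted at 38.5, 56.8 and 75.6 CPM in FAD CD38, 35.3, 59.3 and 67.7 CPM in FAD IgG and 9.06, 27.4 and 35.6 CPM in WT (lowest, median and highest mouse, as in all such triplets that follow). In cortex its values were 31.3, 59.3 and 80.6 CPM in FAD CD38, 41.7, 55.3 and 66.2 CPM in FAD IgG and 26.5, 30.5 and 47.3 CPM in WT. FAD IgG and WT overlapped in both regions, in cortex through 1 WT mouse at 47.3 CPM. The fitted log2 fold change of FAD IgG over WT was 0.97 ± 0.20 (SE) in hippocampus (adjusted p = 0.00384) and 0.79 ± 0.14 in cortex (adjusted p = 0.000792). The other genes of this role were not called. Neu1, the lysosomal sialidase, had log2 fold changes of -0.14 in hippocampus and 0.02 in cortex. Gaa, acid alpha-glucosidase, which degrades glycogen, had -0.17 and -0.02, and Fuca1, the alpha-fucosidase, 0.23 and 0.25. Manba, beta-mannosidase, was counted at 1.23 to 4.67 CPM across all wells and had 0.09 in cortex.

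Of the 9 genes of sphingolipid degradation, 3 rose in hippocampus and 1 in cortex. Hexa encodes the alpha subunit of beta-hexosaminidase, the enzyme of GM2 ganglioside breakdown. In hippocampus Hexa stood at 84.7, 150 and 170 CPM in FAD CD38, 87.7, 133 and 198 CPM in FAD IgG and 31.7, 68 and 85 CPM in WT. Cortical Hexa was 91.8, 124 and 188 CPM in FAD CD38, 107, 140 and 174 CPM in FAD IgG and 56.3, 63.5 and 75.4 CPM in WT. FAD IgG lay wholly above WT in both regions. FAD IgG exceeded WT by a log2 fold change of 1.10 ± 0.17 in hippocampus (adjusted p = 0.000144) and 1.15 ± 0.13 in cortex (adjusted p = 1.11e-06), or 2.15-fold and 2.22-fold.

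Gm2a, the activator that lifts GM2 to the enzyme, rose less. Its hippocampal values were 58.8, 81.1 and 92.3 CPM in FAD CD38, 70.3, 87.5 and 99.5 CPM in FAD IgG and 49.9, 64.5 and 72.9 CPM in WT. The cortical ones were 75.6, 83.9 and 131 CPM in FAD CD38, 81.5, 105 and 121 CPM in FAD IgG and 57.7, 73.7 and 103 CPM in WT. The groups overlapped in both regions, and only the hippocampal log2 fold change of 0.44 ± 0.11 passed (adjusted p = 0.0227), against 0.37 ± 0.14 in cortex (adjusted p = 0.167). Without pool 5, 7, 9 or 10 the hippocampal call was lost, with adjusted p up to 0.124. Galc, which degrades the myelin lipid galactosylceramide, was a gene of few counts. It was counted at 8.96, 11.1 and 14.9 CPM in FAD CD38, 7.25, 9.44 and 14.7 CPM in FAD IgG and 5.56, 6.93 and 7.86 CPM in WT hippocampus. Its cortical values were 7.56, 9.01 and 13.9 CPM in FAD CD38, 7.06, 9.46 and 14.9 CPM in FAD IgG and 3.35, 6.25 and 10.9 CPM in WT. The log2 fold change of FAD IgG over WT was 0.59 in each region, with an SE of 0.17 in hippocampus (adjusted p = 0.0436) and 0.23 in cortex (adjusted p = 0.186). The hippocampal call was lost without pool 5, 7, 9, 10 or 11, with adjusted p up to 0.238. The other members of this role were not called. Their log2 fold changes ran from -0.17 (Smpd1, acid sphingomyelinase) to 0.22 (Asah1, acid ceramidase) in hippocampus and from -0.01 (Smpd1) to 0.23 (Arsa, arylsulfatase A) in cortex. Psap, the precursor of the saposin activators, had 0.11 and 0.12, Glb1, beta-galactosidase, -0.05 and 0.21, and Gla, alpha-galactosidase, -0.08 and 0.14.

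Of the glycosaminoglycan enzymes Gusb and Naglu rose in both regions. Gusb, beta-glucuronidase, was counted in hippocampus at 21, 45.4 and 53.4 CPM in FAD CD38, 28.6, 43.5 and 50.7 CPM in FAD IgG and 9.88, 19.1 and 25.8 CPM in WT. Cortical Gusb was 28, 45.4 and 57.8 CPM in FAD CD38, 22.5, 43.2 and 52.5 CPM in FAD IgG and 17.8, 21.3 and 26.5 CPM in WT. FAD IgG and WT were separate in hippocampus and overlapped in cortex through the lowest FAD IgG mouse. Gusb thus had a log2 fold change of 1.06 ± 0.17 in hippocampus (adjusted p = 0.000345) and 0.93 ± 0.16 in cortex (adjusted p = 0.00041).

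Naglu, an enzyme of heparan sulfate breakdown, had few counts and the largest fold change of the tested genes in cortex. In hippocampus it was counted at 4.9, 5.55 and 7.81 CPM in FAD CD38, 5.73, 6.46 and 10.1 CPM in FAD IgG and 2.06, 3.88 and 5.56 CPM in WT. Cortical Naglu was 4.16, 6.65 and 11 CPM in FAD CD38, 5.51, 6.47 and 10.2 CPM in FAD IgG and 1.43, 3.03 and 4.1 CPM in WT. All FAD IgG mice lay above all WT mice, in hippocampus by a small margin. Fitted log2 fold changes were 0.98 ± 0.21 in hippocampus (adjusted p = 0.00442) and 1.50 ± 0.24 in cortex (adjusted p = 0.000152). Idua, alpha-iduronidase, had 0.52 and 0.42 without a call (adjusted p = 0.19 and 0.175). Without the wells above 12% ribosomal RNA Idua was called in hippocampus (adjusted p = 0.0464). Ids, iduronate sulfatase, had 0.13 and -0.11, and Arsb, arylsulfatase B, 0.03 and -0.04. Sgsh, the heparan sulfamidase, was counted at 0.419 to 2.89 CPM across all wells.

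Of the lipid export genes Npc2 had the smallest adjusted p of the 35 genes in hippocampus. Npc2 is the soluble protein that hands cholesterol to the membrane protein Npc1. In hippocampus Npc2 was counted at 175, 230 and 252 CPM in FAD CD38, 191, 226 and 270 CPM in FAD IgG and 60.1, 94.9 and 114 CPM in WT. In cortex it was counted at 157, 200 and 251 CPM in FAD CD38, 203, 224 and 273 CPM in FAD IgG and 102, 112 and 140 CPM in WT. Both FAD groups lay wholly above WT in both regions. The log2 fold change of FAD IgG over WT was 1.20 ± 0.12 in hippocampus (adjusted p = 4.73e-07) and 0.93 ± 0.13 in cortex (adjusted p = 1.49e-05). Npc1 itself was not called, at 0.39 ± 0.27 in hippocampus and a level of 4.1 to 12 CPM across all wells.

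Lipa, the acid lipase that releases cholesterol from its esters, rose with smaller steps. Hippocampal Lipa was 7.23, 11.8 and 16.3 CPM in FAD CD38, 12.7, 15.9 and 21.1 CPM in FAD IgG and 6.3, 10.5 and 12.1 CPM in WT. Cortical Lipa was 9.01, 11.1 and 14.9 CPM in FAD CD38, 10.6, 13.4 and 17.1 CPM in FAD IgG and 4.81, 8.57 and 10.5 CPM in WT. FAD IgG lay above WT in both regions by narrow gaps, while FAD CD38 overlapped both. Lipa had log2 fold changes of FAD IgG over WT of 0.69 ± 0.19 in hippocampus (adjusted p = 0.0375) and 0.65 ± 0.17 in cortex (adjusted p = 0.0262). The hippocampal call was lost without any 1 of pools 5, 6, 7, 9, 10 and 11 (adjusted p up to 0.116), and the cortical one without any 1 of pools 6, 7, 8, 10 and 11 (adjusted p up to 0.146).

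Of the genes of protein degradation and granulin, Grn and Lgmn rose in both regions. Grn encodes progranulin, a secreted protein that is cut into granulins in the lysosome, and whose loss in people causes frontotemporal dementia or a storage disease. Its hippocampal values were 42.7, 101 and 132 CPM in FAD CD38, 71.5, 95.9 and 123 CPM in FAD IgG and 23.5, 37.9 and 52.7 CPM in WT. Cortical Grn was 68.7, 104 and 161 CPM in FAD CD38, 75, 111 and 151 CPM in FAD IgG and 25.5, 42.8 and 53.1 CPM in WT. FAD IgG and WT did not overlap. Grn had a log2 fold change of 1.31 ± 0.17 in hippocampus (adjusted p = 2.94e-05) and 1.38 ± 0.18 in cortex (adjusted p = 9.2e-06), the largest of the 35 genes in hippocampus. The end of Grn overlaps Fam171a2 on the opposite strand, and the sources used here do not say whether counting used strand, so reads of both cannot be told apart. Arsb, Lamp1, Npc1, Ppt1 and Sgsh also overlap an opposite gene there, making 6 of the 35 genes.

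Lgmn encodes legumain, an asparaginyl endopeptidase. In hippocampus it was counted at 32.9, 44.1 and 67.9 CPM in FAD CD38, 42.1, 52.1 and 66.4 CPM in FAD IgG and 20.2, 29.4 and 33.5 CPM in WT. In cortex Lgmn was counted at 41.2, 50.8 and 68.6 CPM in FAD CD38, 41.7, 58.2 and 70.6 CPM in FAD IgG and 24.2, 34.2 and 47.7 CPM in WT. FAD IgG stood clear of WT in hippocampus and overlapped it in cortex. Lgmn had a log2 fold change of 0.81 ± 0.14 in hippocampus (adjusted p = 0.000636) and 0.69 ± 0.14 in cortex (adjusted p = 0.00321). Tpp1, tripeptidyl peptidase, was counted in hippocampus at 40.6, 65.6 and 80.6 CPM in FAD CD38, 60.3, 69.7 and 81 CPM in FAD IgG and 34.6, 55.4 and 63.4 CPM in WT. Its cortical values were 55.9, 75 and 86.5 CPM in FAD CD38, 64.5, 78.3 and 88 CPM in FAD IgG and 55.9, 62.5 and 70 CPM in WT. The groups overlapped in both regions. The fold changes were alike in size, 0.38 ± 0.12 in hippocampus (adjusted p = 0.0712) and 0.34 ± 0.10 in cortex (adjusted p = 0.0431). The cortical call was lost without any 1 of pools 5, 6, 7, 8, 9 and 11 (adjusted p up to 0.14), and Tpp1 was called in hippocampus without the wells above 12% ribosomal RNA (adjusted p = 0.0147). Ppt1, the palmitoyl thioesterase, had 0.07 in hippocampus and 0.06 in cortex.

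Of the membrane proteins, Lamp2 and Cd63 rose in both regions and Scarb2 in hippocampus. Lamp2 is a heavily glycosylated protein of the lysosomal membrane with a role in autophagy. Hippocampal Lamp2 was 71.5, 97.8 and 104 CPM in FAD CD38, 84.4, 103 and 119 CPM in FAD IgG and 48.6, 54.9 and 63.4 CPM in WT. Cortical Lamp2 was 77.3, 93.1 and 104 CPM in FAD CD38, 82.1, 102 and 109 CPM in FAD IgG and 45.7, 61.3 and 68.9 CPM in WT. Every FAD mouse of either treatment was above every WT mouse in both regions. Lamp2 had log2 fold changes of FAD IgG over WT of 0.89 ± 0.11 in hippocampus (adjusted p = 8.53e-06) and 0.68 ± 0.12 in cortex (adjusted p = 0.000358).

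Cd63, a tetraspanin of late endosomes and lysosomes, was counted in hippocampus at 384, 541 and 717 CPM in FAD CD38, 363, 670 and 763 CPM in FAD IgG and 109, 242 and 289 CPM in WT. Cortical Cd63 was 284, 454 and 574 CPM in FAD CD38, 364, 447 and 649 CPM in FAD IgG and 170, 249 and 312 CPM in WT. FAD IgG stood clear of WT in both regions, and FAD CD38 reached into the WT range in cortex alone. The log2 fold change of FAD IgG over WT was 1.24 ± 0.18 in hippocampus (adjusted p = 0.000109) and 0.92 ± 0.15 in cortex (adjusted p = 0.000233). Scarb2, the receptor that carries beta-glucocerebrosidase to the lysosome, was counted in hippocampus at 54, 67.7 and 77.7 CPM in FAD CD38, 63.5, 72.2 and 77.6 CPM in FAD IgG and 44.2, 48.7 and 59.3 CPM in WT. FAD IgG lay above WT there without overlap. Its log2 fold change was 0.54 ± 0.13 in hippocampus (adjusted p = 0.011) and 0.27 ± 0.11 in cortex (adjusted p = 0.189). Its hippocampal call was lost without pool 5, 6, 9 or 10, with adjusted p up to 0.106.

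Lamp1, the close relative of Lamp2, did not pass. In hippocampus Lamp1 was counted at 93.9, 114 and 127 CPM in FAD CD38, 98.7, 124 and 143 CPM in FAD IgG and 77.2, 90.2 and 119 CPM in WT. The cortical counts were 104, 125 and 170 CPM in FAD CD38, 120, 148 and 162 CPM in FAD IgG and 89.9, 114 and 141 CPM in WT. The groups overlapped, with log2 fold changes of 0.39 ± 0.12 in hippocampus (adjusted p = 0.0633) and 0.33 ± 0.11 in cortex (adjusted p = 0.128). Lamp1 was called in hippocampus without the wells above 12% ribosomal RNA (adjusted p = 0.0369). In that fit 16 genes rose in hippocampus, with Idua, Tpp1 and Lamp1 added, and 11 in cortex. The share of all genes called in that fit was not counted. Laptm4a and Laptm4b had log2 fold changes of -0.03 and -0.18 in hippocampus and -0.22 and 0.10 in cortex. Mcoln1, the mucolipin calcium channel, had -0.13 and 0.15, and Tmem106b 0.18 and 0.08.

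**Figure D2:**
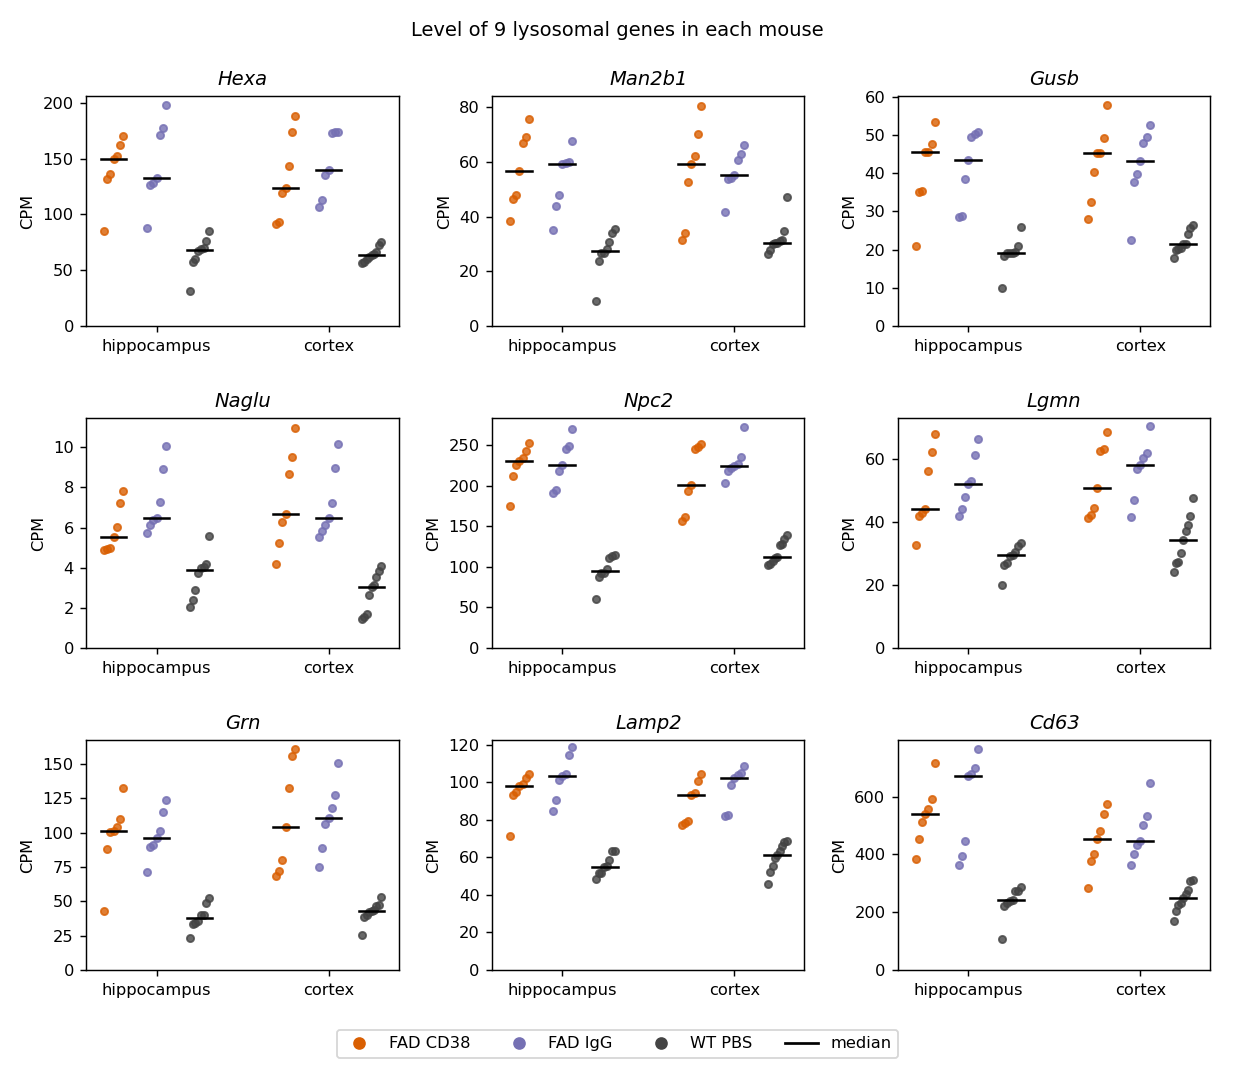
Level in CPM of 9 lysosomal genes in each mouse, by region, with FAD CD38, FAD IgG and WT PBS from left to right and a black line at each median. The 9 shown are the genes called higher in all 4 comparisons of a FAD group with WT. All 9 medians of both FAD groups lie above the WT median in both regions, which follows from that choice and is no separate support. The FAD CD38 and FAD IgG points overlap for all 9.

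Groups were also compared without a model. In hippocampus 10 genes had every FAD IgG mouse above every WT mouse (375 of all 12728 genes did), and in cortex 7 did (245 of 12968). Those of cortex were Hexa, Naglu, Lipa, Npc2, Grn, Lamp2 and Cd63. Within pools, FAD IgG lay above WT in 6 of 6 pools that held both groups for each of the 10 genes called in both regions, except Lgmn in cortex with 5 of 6. These genes were called by a fit of the same wells with pool as a covariate, so this count is no separate support. The share of all genes with this pattern was not counted.

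The promoters of the called genes that hold the E-box CACGTG are shown because this motif is the core of the CLEAR element. They are RefSeq promoter windows of build GRCm38.p6, 250 bases before and 50 bases after the annotated start, printed 5' to 3' on the gene's strand with each CACGTG in capitals. Naglu lies on the plus strand of chr11:101069844-101070143, Lgmn on the minus strand of chr12:102439043-102439342, Lamp1 on the plus strand of chr8:13158911-13159210 and Gaa on the plus strand of chr11:119267713-119268012.
Naglu: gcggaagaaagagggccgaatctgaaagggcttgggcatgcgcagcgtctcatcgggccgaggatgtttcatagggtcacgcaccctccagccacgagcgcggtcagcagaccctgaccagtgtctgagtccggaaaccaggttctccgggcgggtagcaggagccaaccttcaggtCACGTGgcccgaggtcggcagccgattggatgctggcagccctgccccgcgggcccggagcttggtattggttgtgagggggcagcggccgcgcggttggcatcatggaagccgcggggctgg
Lgmn: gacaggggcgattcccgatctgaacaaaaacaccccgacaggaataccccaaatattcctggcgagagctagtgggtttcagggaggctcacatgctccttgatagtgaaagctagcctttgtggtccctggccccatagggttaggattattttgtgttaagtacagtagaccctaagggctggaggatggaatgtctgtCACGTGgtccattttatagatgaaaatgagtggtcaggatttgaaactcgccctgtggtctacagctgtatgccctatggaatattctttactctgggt
Lamp1: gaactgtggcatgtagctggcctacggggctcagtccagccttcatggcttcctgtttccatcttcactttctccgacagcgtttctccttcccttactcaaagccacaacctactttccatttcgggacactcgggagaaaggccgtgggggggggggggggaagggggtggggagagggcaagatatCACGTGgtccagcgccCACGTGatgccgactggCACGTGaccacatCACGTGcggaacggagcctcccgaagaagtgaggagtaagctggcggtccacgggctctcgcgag
Gaa: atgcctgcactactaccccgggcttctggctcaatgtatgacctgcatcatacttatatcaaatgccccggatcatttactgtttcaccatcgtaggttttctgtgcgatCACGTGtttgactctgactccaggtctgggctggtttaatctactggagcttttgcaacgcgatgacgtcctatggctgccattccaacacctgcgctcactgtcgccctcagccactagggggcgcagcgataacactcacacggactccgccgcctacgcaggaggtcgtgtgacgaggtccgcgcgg
Lamp1 holds 4 copies, starting between 61 and 15 bases upstream of its start, while Naglu, Lgmn and Gaa hold 1 each, at 73, 49 and 140 bases upstream. Lgmn has 2 windows in the RefSeq table, of which the other holds no copy, and a gene with several windows counts as holding the motif if any does. Both Lamp1 and Gaa were uncalled in FAD IgG against WT and differed between WT regions. CACGTG was searched on both strands, which read alike for this palindrome. It was found in 9 of the 32 members with a promoter entry (28.1%), against 8.09% of all 27025 genes with one and 10.7% of the genes in the count table. Among the 14 genes that rose in FAD IgG 2 held it (14.3%), and among the other 18 entries 7 did (38.9%). These 7 include Sgsh, which was not tested. The longer TCACGTGA, which contains CACGTG, was found in Gla and Mcoln1, 6.25% of members against 1.12% of all genes, and in 0 of the 14 that rose. A match is a description of letters, and its absence says only that this window lacks them. Npc1, Asah1 and Laptm4b were not searched.

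**Figure D3:**
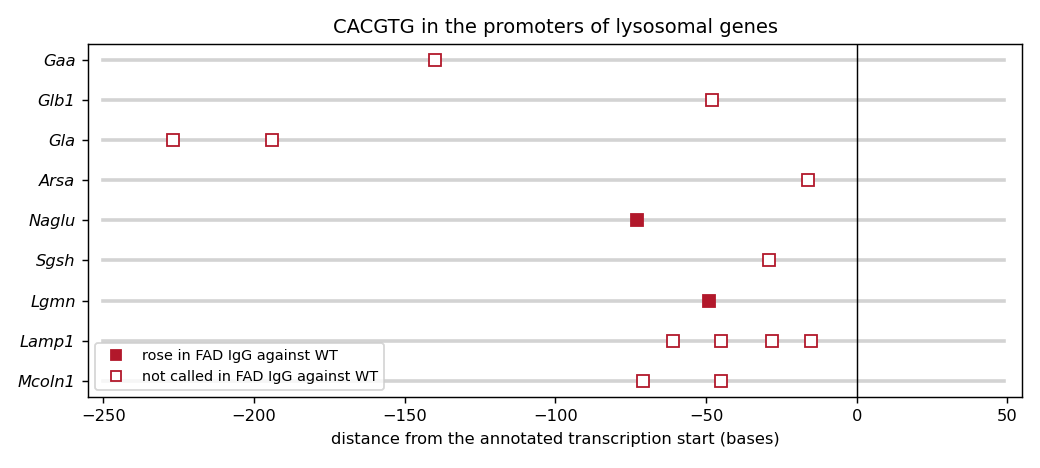
Positions of CACGTG in the 9 promoters that hold it, as distance in bases from the annotated start, with the searched window in grey. The 2 filled genes, Naglu and Lgmn, rose in FAD IgG against WT, and 7 promoters belong to genes that were not called there. Among these 7, Sgsh was not tested.

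FAD CD38 was compared with FAD IgG to ask what the CD38 treatment changed among FAD mice. None of the tested lysosomal genes was called. In hippocampus 0 of 33 and in cortex 0 of 34 tested genes were called in either direction by edgeR, and DESeq2 and limma-voom gave 0 as well. No lysosomal gene reached an unadjusted p under 0.05 in either region, against 1.55% of all genes in hippocampus and 1.5% in cortex, and 0% of all genes were called in each direction. The median log2 fold change was -0.01 in hippocampus and -0.06 in cortex. In hippocampus 16 of 33 genes lay above 0, against 51.5% of all genes, and in cortex 5 of 34 did, against 48.7%. All 95% intervals held 0 and all stayed within 1 log2 unit of it, running as low as -0.75 (Lipa) and as high as 0.94 (Gla), both in hippocampus. Intervals and p-values came from the same F, so holding 0 restates that no unadjusted p fell under 0.05. The data allow changes of the sizes within these intervals. FAD CD38 and FAD IgG overlapped for every lysosomal gene. Manba, untested in hippocampus for its few counts, stood there at 1.61, 1.95 and 3.12 CPM in FAD CD38 and 2.15, 2.8 and 4.67 CPM in FAD IgG, and was lower in FAD CD38 than in FAD IgG in 6 of 6 pools that held both. In cortex Manba was higher in FAD CD38 in 3 of 6 pools. Hippocampal wells held 3 to 9 counts of Manba in FAD CD38 and 5 to 15 in FAD IgG. Manba was the only lysosomal gene, in either region, with all pools on the same side. How many genes would do so by chance was not tested, so no effect of the treatment is read from it. Among all genes, every FAD CD38 mouse lay above every FAD IgG mouse for 1 gene in each region, and below for 4 in hippocampus and 2 in cortex.

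The genes with the smallest p in this comparison were Lipa, Naglu, Galc and Neu1 in hippocampus and Tpp1, Npc2, Lamp2 and Lipa in cortex. Lipa had a log2 fold change of -0.35 (95% interval -0.75 to 0.05) in hippocampus and -0.22 (-0.58 to 0.14) in cortex, adjusted p = 1 in both. Its medians were 11.8 CPM in FAD CD38 and 15.9 CPM in FAD IgG hippocampus, and the groups overlapped. Naglu had -0.25 (-0.67 to 0.18) and Galc 0.16 (-0.18 to 0.51) in hippocampus. Tpp1 had -0.20 (-0.40 to 0.00), Npc2 -0.16 (-0.43 to 0.10) and Lamp2 -0.15 (-0.40 to 0.10) in cortex. Neu1 was counted at 33.6, 42.8 and 56.3 CPM in FAD CD38, 36.7, 41.7 and 48.2 CPM in FAD IgG and 30.9, 47.2 and 53.6 CPM in WT hippocampus. Its cortical values were 32.1, 46.2 and 57.4 CPM in FAD CD38, 30.7, 48.5 and 63.3 CPM in FAD IgG and 27.9, 45.3 and 54.8 CPM in WT. The Neu1 ranges of all groups lay over each other.

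With both regions of each mouse in 1 limma-voom fit, the mean effect of FAD CD38 against FAD IgG was again uncalled for all 34 tested genes (0% of all 13447 genes in each direction). Lipa alone had an unadjusted p under 0.05, at -0.30 ± 0.14 (adjusted p = 1), against 1.9% of all genes. The difference of this effect between regions, hippocampus minus cortex, was called for no lysosomal gene and for 0% of all genes, with no lysosomal gene at an unadjusted p under 0.05.

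**Figure D4:**
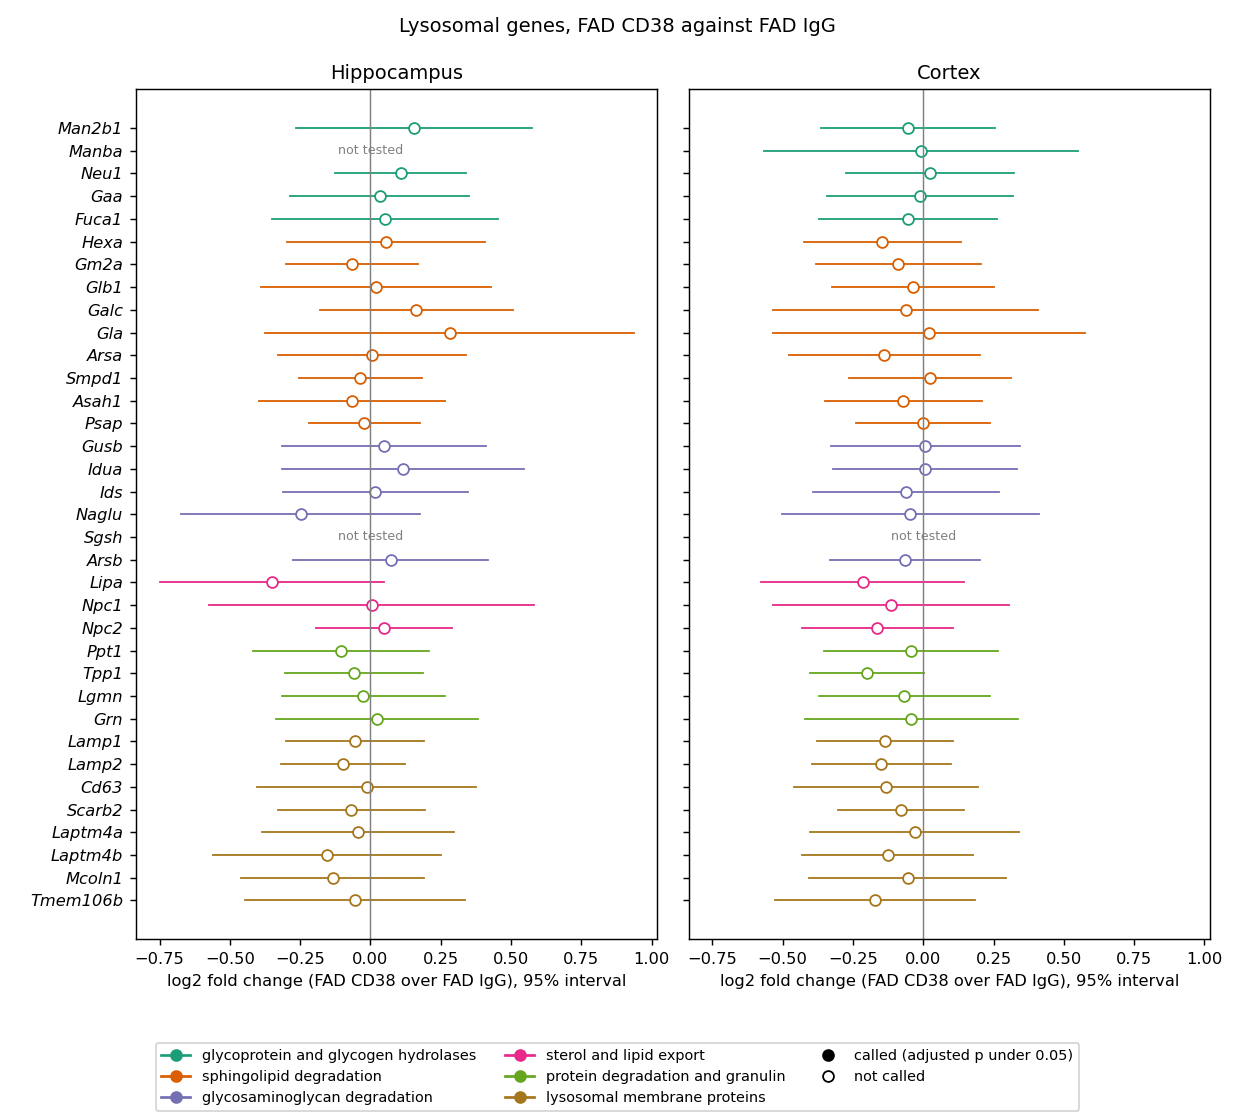
Log2 fold change of each lysosomal gene in FAD CD38 over FAD IgG mice with its 95% interval, hippocampus left and cortex right. All points are open and every interval crosses 0, with the widest upward reach of 0.94 for Gla and the lowest of -0.75 for Lipa in hippocampus.

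FAD CD38 mice were then set against WT, a comparison that shares its WT mice with that of FAD IgG. In hippocampus 12 of 33 lysosomal genes rose (36.4%, against 4.56% of all genes, with 0.754% falling) and 0 fell. In cortex 9 of 34 rose (26.5%, against 3.3%, with 1.23% falling) and 0 fell. Beside these calls, 12 of 15 microglial markers were higher in FAD CD38 than in WT in each region, as were 3 of 12 astrocyte markers in hippocampus and 2 of 12 in cortex. Of 11 neuronal markers 1 was higher in cortex, and 1 of 10 oligodendrocyte markers was higher in each region. Of 7 endothelial markers 2 were lower in cortex (Itm2a and Slco1a4). The part of these cells in the FAD CD38 result was not tested. The cortical calls were Man2b1, Hexa, Gusb, Naglu, Npc2, Lgmn, Grn, Lamp2 and Cd63, and hippocampus added Gm2a, Galc and Scarb2. DESeq2 also found no fall, whereas voom with sample quality weights called Smpd1 (-0.25) and Laptm4b (-0.29) lower in hippocampus. The largest log2 fold changes in hippocampus were 1.34 ± 0.17 for Grn (adjusted p = 1.58e-05) and 1.25 ± 0.11 for Npc2 (adjusted p = 1.5e-07). In cortex they were 1.45 ± 0.23 for Naglu (adjusted p = 0.000153) and 1.34 ± 0.17 for Grn (adjusted p = 1.06e-05). Lipa was not called here, at 0.34 ± 0.19 in hippocampus (adjusted p = 0.365) and 0.43 ± 0.17 in cortex (adjusted p = 0.149). Its difference between FAD CD38 and FAD IgG did not pass either. Without pool 8 the cortical call of Lgmn was lost (adjusted p = 0.0702). The hippocampal calls of Naglu, Gm2a and Scarb2 had adjusted p = 0.0442, 0.0481 and 0.0235. They were lost without any 1 of 6, 7 and 5 pools in turn, with adjusted p up to 0.134, 0.214 and 0.104. For Gm2a these are all the pools, and DESeq2 lost the call of Naglu. Without the wells above 12% ribosomal RNA 14 genes rose in hippocampus and 9 in cortex. The share of all genes called in that fit was again not counted. There Idua, Tpp1 and Lamp1 were called in hippocampus (adjusted p = 0.00616, 0.0138 and 0.0477) and Naglu was not (adjusted p = 0.0568).

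Every FAD CD38 mouse lay above every WT mouse for 5 genes in hippocampus (276 of all 12728 genes did), namely Man2b1, Galc, Npc2, Lamp2 and Cd63, and for 6 in cortex (208 of 12968), namely Hexa, Gusb, Naglu, Npc2, Grn and Lamp2. For Hexa, Gusb and Grn in hippocampus the lowest FAD CD38 mouse lay inside the WT range, at 84.7, 21 and 42.7 CPM, against WT maxima of 85, 25.8 and 52.7 CPM. For these genes that mouse was the one with 17.2% ribosomal RNA.

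Whether the effect of FAD IgG against WT differed between regions was tested in the fit of both regions. No lysosomal gene passed by limma-voom, while 0.201% of all genes had a larger and 0.0223% a smaller effect in hippocampus than in cortex. Npc2 was the single gene at an unadjusted p under 0.05, with a difference of 0.31 ± 0.13 (adjusted p = 0.524). Cd63 had 0.38 ± 0.19 (adjusted p = 0.622) and Naglu -0.40 ± 0.25 (adjusted p = 0.694). The calls that passed in 1 region alone, such as Galc with a difference of -0.05 ± 0.22 and Tpp1 with 0.08 ± 0.12, are therefore not shown to differ between regions.

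In the 8 WT mice with both regions, 3 lysosomal genes were higher and 5 lower in hippocampus than in cortex, of 33 tested. These are 9.09% and 15.2%, against 14.3% and 13.5% of all 12454 genes, so regional calls were about as frequent as the background or below it. Laptm4a, a small transmembrane protein of late endosomes and lysosomes, was counted at 160, 284 and 359 CPM in hippocampus and 120, 201 and 227 CPM in cortex. It was higher in hippocampus in 7 of 8 mice (0.56 ± 0.15, adjusted p = 0.00884). Gaa was counted at 105, 171 and 225 CPM in hippocampus and 69.7, 115 and 178 CPM in cortex, higher in 7 of 8 mice (0.45 ± 0.10, adjusted p = 0.00144). Tmem106b, a membrane protein whose variants modify frontotemporal dementia in people, was higher in 8 of 8 mice, at 40.9, 50.5 and 72.9 CPM in hippocampus and 32.2, 38.4 and 43.2 CPM in cortex (0.40 ± 0.11, adjusted p = 0.00921). None of these genes was called between FAD IgG and WT.

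The genes lower in WT hippocampus were Asah1, Npc2, Lamp1, Gm2a and Tpp1. Asah1 was counted at 14.4, 29.7 and 32.2 CPM in hippocampus and 27.4, 34.3 and 40.2 CPM in cortex, lower in 8 of 8 mice (-0.37 ± 0.10, adjusted p = 0.00825). Npc2 was also lower in 8 of 8 mice, at 60.1, 94.9 and 114 CPM in hippocampus and 102, 120 and 140 CPM in cortex (-0.36 ± 0.09, adjusted p = 0.00406). Lamp1 was lower in 7 of 8 mice (-0.34 ± 0.10, adjusted p = 0.0129). Gm2a (-0.33 ± 0.11, adjusted p = 0.0315) and Tpp1 (-0.28 ± 0.09, adjusted p = 0.0303) were each lower in 7 of 8 mice, and lost their calls in a fit with pool as a factor in place of the mouse block (adjusted p = 0.0631 and 0.0654). The well with 23.7% ribosomal RNA is 1 of these 8 hippocampi and holds the lowest value of Asah1, Npc2 and Tpp1. Without that mouse the 8 calls were kept, and Ids was called lower as well (-0.34 ± 0.09, adjusted p = 0.00385). For Asah1 in hippocampus the FAD CD38 values were 21, 29.4 and 40.7 CPM, the FAD IgG values 22.9, 34.9 and 42.3 CPM and the WT values 14.4, 29.7 and 32.2 CPM. Cortical Asah1 was 30.5, 41.3 and 56.9 CPM in FAD CD38, 30.7, 39.8 and 50.3 CPM in FAD IgG and 27.4, 34 and 40.2 CPM in WT.

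**Figure D5:**
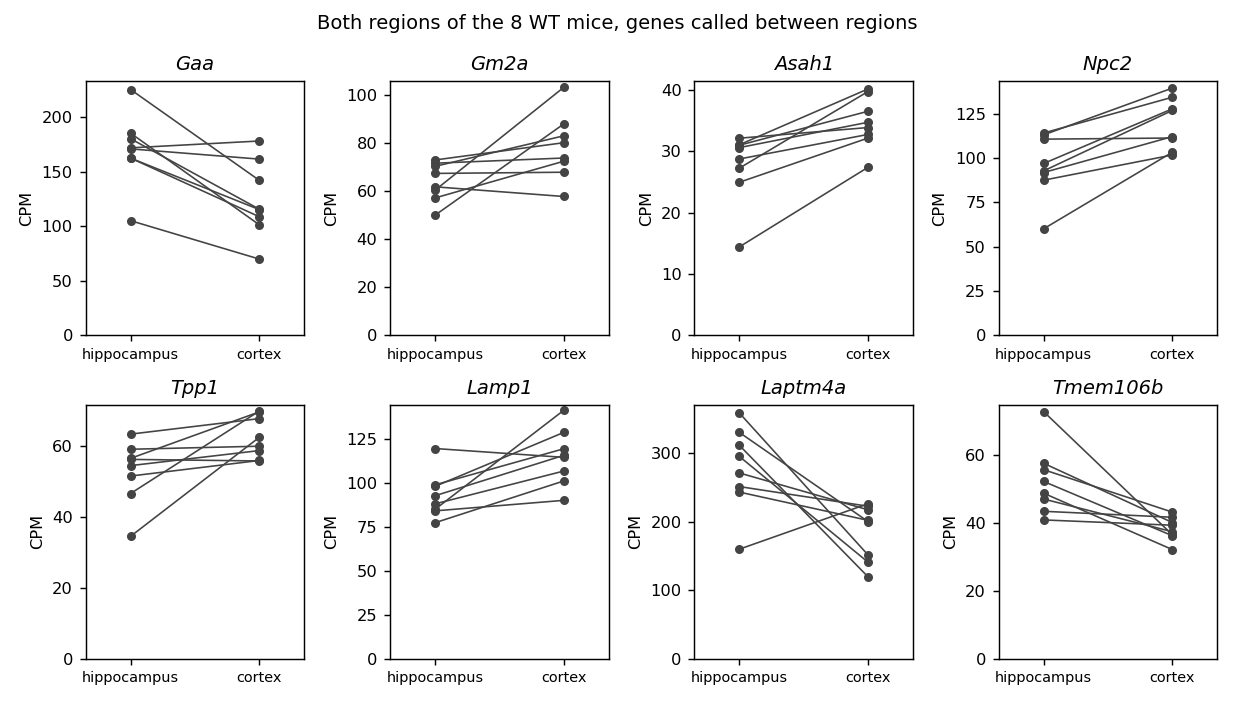
Level in CPM of the 8 genes called between regions in the 8 WT mice with both, hippocampus left and cortex right, with a line joining the regions of a mouse. Gaa, Laptm4a and Tmem106b were higher in hippocampus in 7 or 8 of 8 mice, and the other 5 lower in 7 or 8 of 8.

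Other genes of the lysosome were counted from lists beside these 35. Of 28 tested further hydrolases and cofactors 10 rose in FAD IgG in each region and 0 fell, with medians of 0.42 in hippocampus and 0.30 in cortex. These and the following counts stand against 4.48% of all genes higher in hippocampus and 3.34% in cortex. Cd68, a glycoprotein of macrophage lysosomes, had a log2 fold change of 3.08 ± 0.20 in hippocampus and 2.90 ± 0.20 in cortex. Creg1, a secreted glycoprotein found in lysosomes, had 0.68 ± 0.10 in cortex. Of 24 lysosomal transporters and channels 2 rose in each region, Slc11a1, a metal transporter of phagocytes (3.18 ± 0.30 and 2.57 ± 0.27), and Slc15a3, a histidine and peptide transporter (3.48 ± 0.53 and 2.48 ± 0.29). Of the V-ATPase, the proton pump that acidifies the lysosome, 2 of 20 subunits rose in hippocampus and 1 of 19 in cortex. Tcirg1 rose in both (1.26 ± 0.17 and 1.13 ± 0.17), and Atp6v0d2, with no counts in WT hippocampus, rose there. The median over the pump was -0.13 in hippocampus and -0.02 in cortex.

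Of the genes that regulate or supply the lysosome, Mitf and Vamp8 were called in hippocampus and none in cortex. Of 20 tested genes of the TFEB family and of the mTORC1 machinery on the lysosome, 1 rose in hippocampus (Mitf, 1.12 ± 0.31, adjusted p = 0.0387) and 0 in cortex. Tfeb itself was counted at 4.34, 6.44 and 9.02 CPM in FAD CD38, 4.79, 7.29 and 9.48 CPM in FAD IgG and 3.29, 5.15 and 8.87 CPM in WT hippocampus, with overlapping groups. Of 14 genes of mannose-6-phosphate tagging and sorting none was called by edgeR in either region. Of 26 autophagy genes 1 rose in hippocampus (Vamp8, 0.75 ± 0.20, adjusted p = 0.0286) and 0 in cortex. In FAD CD38 against FAD IgG 0 genes of any of these lists were called in either region.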

How the data were processed

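mcSCRB-seq counted 3' tags of cortex and hippocampus from 24 mice in 47 barcoded wells of 7 library pools. The deposited table holds raw counts per gene and well, made by the authors with bcl2fastq and STAR 2.5.3a, per the submitters' processing notes. The genome build, annotation, counting step and handling of strand and molecular identifiers behind it are absent from the labels and header. Groups came from the labels. Each region was fitted with edgeR 4.0.16 (R 4.3.3; TMM, filterByExpr with a minimum count of 10, quasi-likelihood test) over all genes with library pool as a covariate. FAD CD38, FAD IgG and WT shared one fit, and p-values were Benjamini-Hochberg adjusted over all genes at 0.05. Regions were compared in limma 3.58.1 (voom, mouse as a block of correlation 0.256), and WT regions in edgeR with mouse as a factor. In the edgeR fits the SE and the intervals were derived from the log2 fold change and the quasi-likelihood F. They are thus no information separate from the p-value. DESeq2 1.42.0 was an alternative. The edgeR fits by region, the fit of both regions and the WT region fit were run on simulated counts with known changes. Those counts held no pool or mouse effect, and the other steps were not simulated. Depth was 1270918 to 5101368 counts per well, and replicates differed by more than sampling noise (lowest chi-square per degree of freedom 2.55).

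The genes and lists were chosen with earlier results of these data known. Values per group are given for the 8 genes of smallest adjusted p in FAD IgG against WT in each region, those called lower in any comparison, and the 4 of smallest p in FAD CD38 against FAD IgG. Other genes given in that form were added after their values were seen, because they were called or stood next to a called gene. Promoters were matched by symbol to RefSeq windows of GRCm38.p6. Some genes of the further lists are not reported here.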

Additional observations from a re-analysis of the deposited data

Results flagged for a closer look

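Among 96 groups of the genes given with values per group, 8 held a mouse far from the rest of its group, and chance would set apart about 1 in 20. In WT hippocampus the mouse with 23.7% ribosomal RNA held the lowest Cd63 (109 CPM, next 222), Man2b1 (9.06 CPM, next 23.8), Neu1 (30.9 CPM, next 43) and Asah1 (14.4 CPM, next 25). In FAD CD38 hippocampus the mouse with 17.2% ribosomal RNA held the lowest Tpp1 (40.6 CPM, next 64.3) and Gm2a (58.8 CPM, next 78.7). Lamp2 was lowest in a FAD CD38 hippocampus of pool 11 (71.5 CPM, next 93.1). Man2b1 was highest in a WT cortex of pool 6 (47.3 CPM, next 34.9). The part of ribosomal RNA in these values was not tested.

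The mouse whose labels disagree between CD38 and IgG entered no comparison. Its summed level over the 35 genes was 3064.41 CPM in hippocampus, against a WT maximum of 2648.18 CPM, and 3307.52 CPM in cortex, against a WT maximum of 2536.56 CPM. Both sums lay within the ranges of both FAD groups. In hippocampus 15 and in cortex 19 of the 35 genes were higher in this mouse than in all WT mice. The share of all genes that were so was not counted. Nothing particular to the lysosomal genes is therefore read from these counts.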

How the results depend on the processing

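No call turned its direction in any alternative. Of 3581 values of single genes over all alternatives, 3481 kept their side of the threshold, 72 lost and 28 gained a call, and the signs of 228 uncalled values changed. Of 45 calls against WT, 35 held in all 17 alternatives and 10 were lost in at least 1. The counts of genes called higher in FAD IgG ran from 9 to 16 in hippocampus (9 to 14 with 1 pool left out) and from 9 to 11 in cortex (9 to 10). In FAD CD38 against WT they ran from 9 to 15 in hippocampus (9 to 11) and from 8 to 10 in cortex (8 to 9). FAD CD38 against FAD IgG gave 0 in every alternative. The share of all genes called was not counted in the alternatives. Voom with sample quality weights called 2 genes lower in FAD CD38 than in WT hippocampus, where the other fits called 0, and the cause was not tested. Between WT regions, 3 genes were lower with no mouse block and pool as a factor, against 5 with the block, and 6 without the mouse of 23.7% ribosomal RNA, a fit chosen after seeing the data. Without the mouse block the effects between FAD groups and between regions gave no other call. Depth kept Sgsh, and Manba in hippocampus, out of the tests.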

Other observations

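Some genes outside the 35 that mark glia were also called by edgeR between FAD IgG and WT. Of 12 astrocyte markers 6 were called higher in hippocampus and 2 in cortex, with median log2 fold changes of 0.42 and 0.11. Gfap, the intermediate filament of reactive astrocytes, had a log2 fold change of 2.74 ± 0.14 in hippocampus and 3.39 ± 0.18 in cortex, and Aqp4, the water channel of astrocyte endfeet, 1.57 ± 0.27 and 1.18 ± 0.21. Cldn11, a tight junction protein of myelin, was the single oligodendrocyte marker called, with 1.07 ± 0.12 in hippocampus and 0.91 ± 0.14 in cortex. In FAD CD38 against WT, a comparison with the same WT mice, Gfap had 2.53 ± 0.14 in hippocampus and 3.15 ± 0.17 in cortex. Over the 12 astrocyte markers the medians of that comparison were 0.33 and -0.02. Between FAD CD38 and FAD IgG, Gfap had -0.21 ± 0.13 in hippocampus and -0.24 ± 0.17 in cortex, without a call (adjusted p = 1 in both).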
